A study of Solanum lycopersicum with 12 samples.

Results

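Dehydration marker genes are transcripts that plant laboratories read as signs of water loss in a leaf. The set described here was chosen by identifier and holds the tomato dehydrin gene *TAS14* and the gene next to it, the late embryogenesis abundant genes *ER5* and *le25*, 2 genes of proline synthesis (P5CS), the *Asr* genes and the transcription factor gene *AREB1*. The list names 10 identifiers, and 9 of them had a row among the 33976 genes of the deposited table. The third *Asr* identifier, Solyc04g071620, was not analysed here. The names are those given with the list. RefSeq's gene table carries the symbols TAS14, ER5, LE25, PRO2 (with P5CS among its synonyms) and AREB1, all 5 on the chromosome that the identifier names, but it does not pair symbols with identifiers, and gene sequences were not analysed here.

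The leaves came from tomato (cultivar Red Setter) in 12 libraries of poly(A)-selected RNA, 4 of the wild type (WT in the labels), 4 of the line *slmyb60Cr1* (CR_1) and 4 of *slmyb60Cr2* (CR_2). Each edited line is a homozygous T2 line with a CRISPR/Cas9 deletion in *SlMYB60*, selected to be free of the Cas9 insertion, and each library pooled discs of fully expanded leaves from 4 plants. All 12 libraries carry the label water stress, with irrigation suspended for 14 days. The paper's methods describe a water deficit trial at another site and mention no water deficit for the plants used for RNA. No watered library stands beside these 12, so the water supply of the plants cannot be told apart from any other condition they shared, and the levels below are given without a reference for either state.

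When a plant cell loses water, the hormone abscisic acid (ABA) builds up and bZIP transcription factors of the AREB/ABF family switch on genes whose promoters carry ABA-responsive elements. Dehydrins and other late embryogenesis abundant proteins are small hydrophilic proteins that accumulate in drying seeds and in water-stressed leaves, where they are thought to protect membranes and proteins. ASR proteins, named after ABA, stress and ripening, are small hydrophilic proteins of similar occasions, and P5CS makes the precursor of proline, an osmolyte of stressed plants. *AREB1* is itself a member of the bZIP family and is known in tomato to respond to drought and salinity.

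The values are TPM, transcript levels corrected for transcript length and scaled to a sum of 1000000 in each library, so levels of different genes can be set side by side. TPM keeps no read depth, which is unknown for single genes, and only the spread between libraries stands for the error. Differences were tested on log2(TPM + 0.1) with limma in one fit of 12 libraries, over the 21218 genes that reached 0.5 TPM in 4 or more libraries, and a gene was called at an adjusted p below 0.05 with a log2 fold change beyond 1 in either direction. All 9 members with a row passed that TPM limit. *SlMYB60* (Solyc10g081490) ranged from 12.3 to 21.6 TPM among wild type libraries and lay at most at 2.78 TPM in *slmyb60Cr1* and 3.15 TPM in *slmyb60Cr2*. As a check of the tissue, 3 identifiers set down from general knowledge as Rubisco small subunit genes summed to between 3717 and 22348 TPM per library, and 3 set down as ripening fruit genes summed to at most 4.53 TPM. No table at hand paired those 6 identifiers with names.

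The members spanned a wide range of levels. The *Asr* gene Solyc04g071610 was the most abundant, with a mean of 258 TPM over the 12 libraries, more than 97.5% of the tested genes. It was followed by the *TAS14* neighbour Solyc02g084840 (81.5 TPM), *ER5* (41.2 TPM), the P5CS gene Solyc08g043170 (35.4 TPM), *TAS14* (19.2 TPM) and *AREB1* (15.1 TPM), around or above the median of 15.5 TPM over tested genes. The lowest were the second *Asr* gene Solyc04g071580 (5.29 TPM), the other P5CS gene Solyc06g019170 (2.36 TPM) and *le25* (2.11 TPM), which lay above only 15.6% of the tested genes. Neighbours in this order were often not parted. *ER5* was above Solyc08g043170 in 5 of 12 libraries, *TAS14* above *AREB1* in 8 of 12 and Solyc06g019170 above *le25* in 6 of 12, whereas Solyc04g071610 lay above Solyc02g084840, and *AREB1* above Solyc04g071580, in all 12 with no overlap of their ranges.

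**Figure D1:**
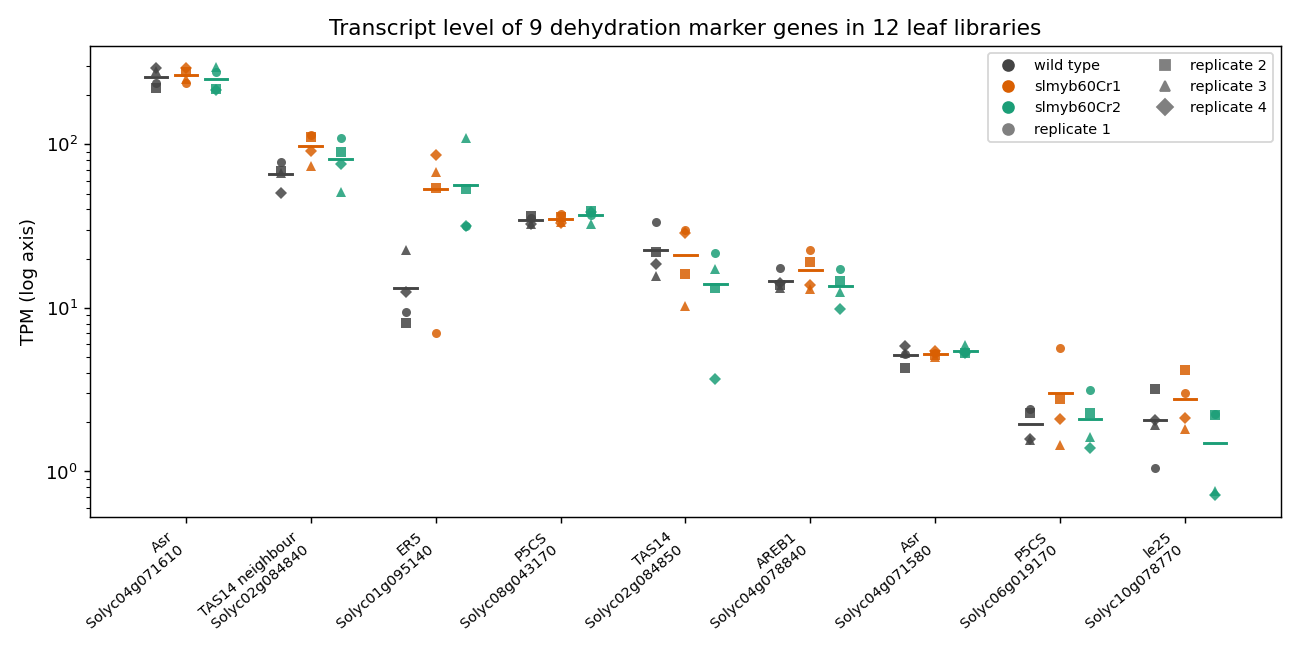
Transcript level in TPM on a log axis for the 9 members, ordered by their mean; each point is 1 library, colored by line and shaped by replicate number, and bars are means of 4 libraries. *ER5* is the gene in which the 4 *slmyb60Cr2* libraries, 31.8 TPM and above, all lie over the 4 wild type libraries, 22.6 TPM and below.

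None of the 9 members passed the call when *slmyb60Cr1* was set against the wild type (0 of 9, with 0.669% of all tested genes called), nor for *slmyb60Cr2* (0 of 9, with 1.40% called) or between the lines (0 of 9, with 0.151% called). No member passed the adjusted p threshold at any fold either (0 of 9 in each comparison, beside 1.69%, 7.41% and 0.509% of all tested genes). At an unadjusted limma p below 0.05 there were 2 members in *slmyb60Cr1* (*ER5* and Solyc02g084840, both higher) beside 17.1% of all genes in either direction and 8.26% that were higher. In *slmyb60Cr2* there was 1 (*ER5*, higher) beside 23.1% in either direction and 15.3% higher. Between the lines there was 1 (*le25*, lower in *slmyb60Cr2*) beside 14.5% in either direction and 3.20% lower. A log2 difference beyond 1 was reached by 1 of 9 members in each line, *ER5* both times, beside 4.19% and 4.31% of all tested genes. The median log2 difference of the members was 0.19 in *slmyb60Cr1*, where 8 of 9 were above the wild type, against −0.02 and 45.3% over all tested genes. Of these, Solyc08g043170 and the *Asr* genes were only 0.03 to 0.05 above, and each changed sign in at least 1 alternative fit. Members also correlated with each other, so their signs are not independent. In *slmyb60Cr2* it was 0.06, with 5 of 9 above, against 0.04 and 57.4%. Between the lines it was −0.28, with 3 of 9 higher in *slmyb60Cr2*, against 0.06 and 63.9%. Both lines share the same wild type libraries. In these bulk leaf samples, fewer cells that express a gene and less transcript per cell cannot be told apart.

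*ER5* (Solyc01g095140), a late embryogenesis abundant gene first described in tomato as ethylene-responsive and known to respond to drought and wounding, showed the largest difference of the set. Its level in the wild type libraries 1 to 4 was 9.44, 8.09, 22.6 and 12.6 TPM. In *slmyb60Cr1* it was 7.02, 54.4, 67.9 and 85.6 TPM. In *slmyb60Cr2* it was 31.9, 53.4, 110 and 31.8 TPM. Thus 7 of the 8 edited libraries were above every wild type library, and the remaining one, *slmyb60Cr1* replicate 1, was below every wild type library.

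The mean of *ER5* was 13.2 ± 6.56 TPM for the wild type, 53.7 ± 33.6 TPM for *slmyb60Cr1* and 56.7 ± 36.8 TPM for *slmyb60Cr2* (SD, n = 4 each). The log2 differences were 1.66 (95% interval 0.08 to 3.24, limma adjusted p = 0.266) and 2.01 (95% interval 0.44 to 3.59, limma adjusted p = 0.118), so neither passed the threshold. In *slmyb60Cr2* the groups did not overlap (two-sided exact permutation test of the TPM values, p = 0.0286, the smallest that 4 libraries against 4 allow, or 0.675 adjusted over the 27 tests on the members), as in 11.4% of all tested genes in the same direction. In *slmyb60Cr1* they overlapped (exact permutation test, p = 0.143).

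Leaving out a single library changed the call. Without *slmyb60Cr1* replicate 1, the log2 difference of *ER5* was 2.48 in *slmyb60Cr1* (limma adjusted p = 0.0199) and stayed at 2.01 in *slmyb60Cr2* (limma adjusted p = 0.0176), and it was a call in both. With only the libraries of the compared groups in the fit, *ER5* was a call in *slmyb60Cr2* (limma adjusted p = 0.0390) but not in *slmyb60Cr1* (limma adjusted p = 0.331). Of 21 alternative fits, 1 made it a call in *slmyb60Cr1* and 3 in *slmyb60Cr2*. Its limma adjusted p ranged over them from 0.0199 to 0.518 and from 0.0176 to 0.249. The library *slmyb60Cr1* replicate 1 also had the lowest summed leaf marker level of the 12, at 3717 TPM. Its part in the result was not tested beyond leaving it out. *ER5* was among the most variable genes within genotypes, with a within-genotype SD of 1.13 on the log2 scale that exceeded those of 99.4% of the 2520 genes within 25% of its level. That SD includes *slmyb60Cr1* replicate 1, far below the rest of its line, and was not computed without it. The lines themselves were not parted in *ER5* (log2 difference 0.35, 95% interval −1.23 to 1.93, limma adjusted p = 0.864).

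*TAS14* (Solyc02g084850) encodes a dehydrin that tomato is known to accumulate under salt, drought and ABA. In the wild type it was at 33.7, 22.0, 15.7 and 18.5 TPM in libraries 1 to 4, in *slmyb60Cr1* at 29.9, 16.0, 10.2 and 28.6 TPM, and in *slmyb60Cr2* at 21.6, 13.2, 17.3 and 3.70 TPM. The 3 ranges overlapped, and the lowest value, *slmyb60Cr2* replicate 4, was 9.11-fold below the highest, wild type replicate 1. The means were 22.5 ± 7.90, 21.2 ± 9.61 and 14.0 ± 7.65 TPM (mean ± SD, n = 4 each).

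The log2 difference of *TAS14* from the wild type was −0.15 in *slmyb60Cr1* (95% interval −1.30 to 0.99, limma adjusted p = 0.920) and −0.88 in *slmyb60Cr2* (95% interval −2.03 to 0.26, limma adjusted p = 0.349). Without *slmyb60Cr2* replicate 4 the latter was −0.34. Both intervals are wide and include a log2 difference of −1. Its within-genotype SD of 0.82 on the log2 scale was above those of 98.4% of the 2926 genes within 25% of its level. In the wild type its mean ranked above 60.8% of the tested genes.

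The neighbour of *TAS14*, Solyc02g084840, was at 77.8, 68.9, 66.5 and 50.2 TPM in wild type libraries 1 to 4. In *slmyb60Cr1* it was at 114, 110, 73.5 and 91.0 TPM, with 3 of the 4 libraries above every wild type library, and in *slmyb60Cr2* at 109, 90.4, 51.3 and 75.8 TPM. The means were 65.9 ± 11.5, 97.1 ± 18.6 and 81.6 ± 24.3 TPM (mean ± SD, n = 4 each). The log2 difference was 0.56 in *slmyb60Cr1* (95% interval 0.06 to 1.05, limma adjusted p = 0.232) and 0.27 in *slmyb60Cr2* (95% interval −0.22 to 0.77, limma adjusted p = 0.519). The groups overlapped in both lines (exact permutation test for *slmyb60Cr1*, two-sided, p = 0.0571, unadjusted). It was more abundant than *TAS14* in each genotype mean. Its levels followed those of *TAS14* loosely over the 12 libraries, with a Pearson correlation of 0.32 and a Spearman correlation of 0.52 of deviations from the genotype means.

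*le25* (Solyc10g078770), a late embryogenesis abundant gene known from drying tomato seeds and from leaves under drought and ABA, was low in every library. Its level was 1.06, 3.19, 1.92 and 2.07 TPM in wild type libraries 1 to 4, 3.02, 4.15, 1.82 and 2.11 TPM in *slmyb60Cr1*, and 2.24, 2.22, 0.759 and 0.714 TPM in *slmyb60Cr2*. The ranges of all 3 genotypes overlapped, with the 2 lowest values in *slmyb60Cr2*.

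On the log2(TPM + 0.1) scale *le25* differed from the wild type by 0.44 in *slmyb60Cr1* (95% interval −0.53 to 1.41, limma adjusted p = 0.671) and by −0.53 in *slmyb60Cr2* (95% interval −1.50 to 0.44, limma adjusted p = 0.522). Between the lines the difference was −0.97 (95% interval −1.94 to −0.0047, limma adjusted p = 0.342). At this level the size of a fold change depends on the pseudocount.

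The 2 P5CS genes, which encode the enzyme of the first committed step from glutamate to proline, differed in level and in spread. Solyc08g043170 had the smallest within-genotype SD of the 9 members, 0.10 on the log2 scale. Wild type libraries ranged from 32.5 to 36.5 TPM, those of *slmyb60Cr1* from 33.0 to 37.8 TPM and those of *slmyb60Cr2* from 32.7 to 39.3 TPM. The log2 differences were 0.03 (95% interval −0.14 to 0.19, limma adjusted p = 0.903) and 0.10 (95% interval −0.06 to 0.26, limma adjusted p = 0.458), the narrowest intervals of the set.

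Solyc06g019170 was lower in every library and more variable, with a within-genotype SD of 0.58. It was at 2.41, 2.28, 1.57 and 1.58 TPM in wild type libraries 1 to 4, at 5.72, 2.77, 1.45 and 2.09 TPM in *slmyb60Cr1* and at 3.16, 2.26, 1.61 and 1.39 TPM in *slmyb60Cr2*. In each genotype the libraries numbered 1 and 2 were above those numbered 3 and 4, while the genotypes overlapped. The log2 differences were 0.44 (95% interval −0.39 to 1.27, limma adjusted p = 0.609) and 0.06 (95% interval −0.77 to 0.89, limma adjusted p = 0.951). Reads shared by the 2 genes, if any, would have been split by Salmon, so their separate levels are uncertain to that extent.

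The 2 *Asr* genes stood far apart in level. Solyc04g071610 ranged from 220 to 292 TPM among wild type libraries, from 239 to 291 TPM among those of *slmyb60Cr1* and from 216 to 296 TPM among those of *slmyb60Cr2*, a 1.37-fold range over all 12 libraries. Its within-genotype SD of 0.19 on the log2 scale exceeded those of 51.0% of all tested genes and of 66.0% of the 435 genes within 25% of its level. Its log2 differences were 0.05 (95% interval −0.23 to 0.33, limma adjusted p = 0.890) and −0.04 (95% interval −0.32 to 0.24, limma adjusted p = 0.898). Solyc04g071580 was at 4.27 to 5.85 TPM, 5.04 to 5.44 TPM and 5.27 to 5.89 TPM in the wild type, *slmyb60Cr1* and *slmyb60Cr2*, with log2 differences of 0.03 (95% interval −0.18 to 0.25, limma adjusted p = 0.903) and 0.09 (95% interval −0.13 to 0.31, limma adjusted p = 0.644). Its within-genotype SD of 0.12 on the log2 scale was below those of most of the 1620 genes of like level, exceeding only 9.88% of them. A 2-fold change of either *Asr* gene lay outside all 4 intervals. RefSeq lists Asr2, ASR3, ASR1 and Asr4 in that order along the chromosome, and members of such a family can share reads, so the split between them is uncertain.

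*AREB1* (Solyc04g078840), the ABA-responsive bZIP factor, was at 17.6, 13.9, 13.2 and 14.1 TPM in wild type libraries 1 to 4, at 22.6, 19.2, 13.1 and 13.8 TPM in *slmyb60Cr1* and at 17.2, 14.5, 12.6 and 9.89 TPM in *slmyb60Cr2*. The genotypes overlapped, and replicate 1 was the highest library in each of them. The means were 14.7 ± 1.97, 17.2 ± 4.52 and 13.5 ± 3.09 TPM (mean ± SD, n = 4 each). The log2 difference was 0.19 in *slmyb60Cr1* (95% interval −0.25 to 0.63, limma adjusted p = 0.683) and −0.14 in *slmyb60Cr2* (95% interval −0.58 to 0.30, limma adjusted p = 0.742). A 2-fold change lay outside both intervals.

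**Figure D2:**
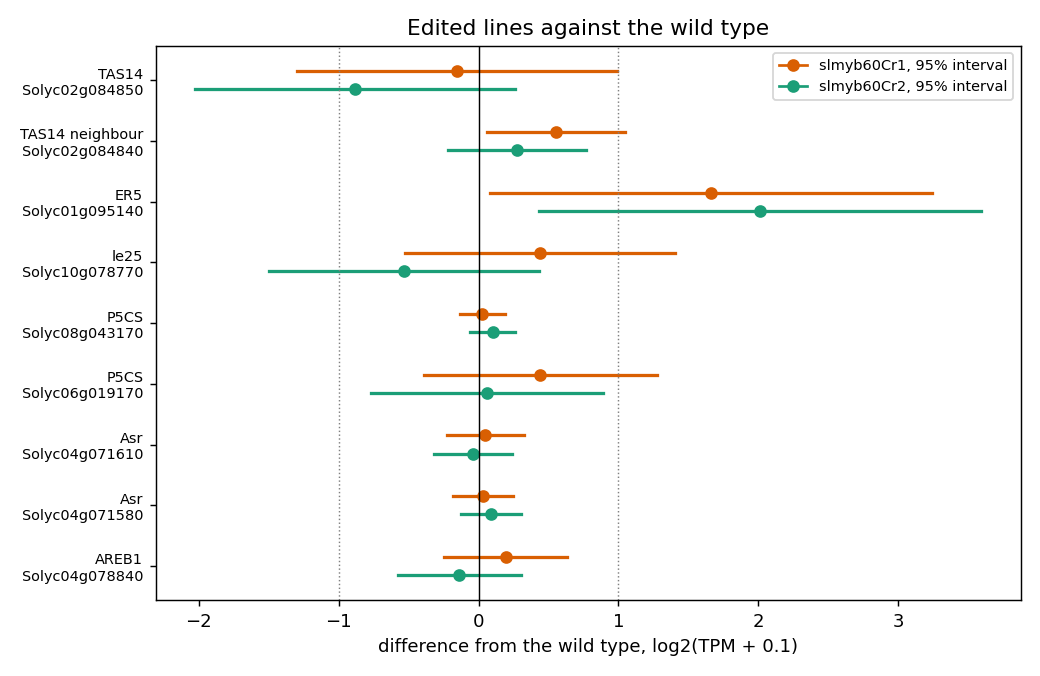
Difference of each edited line from the wild type on the log2(TPM + 0.1) scale for the 9 members, with 95% intervals from limma (4 libraries per line, not adjusted for the number of genes); dotted lines mark a 2-fold change. The *ER5* points, 1.66 and 2.01, lie farthest from 0, and the intervals of the *Asr* genes, Solyc08g043170 and *AREB1* lie within the dotted lines.

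The members did not rise and fall together from library to library. As deviations from the genotype means over 12 libraries, *AREB1* and the P5CS gene Solyc06g019170 followed each other most closely (Pearson 0.91, Spearman 0.94). *TAS14* followed *AREB1* (Pearson 0.71, Spearman 0.73) and Solyc06g019170 (Pearson 0.67, Spearman 0.71), and Solyc02g084840 followed Solyc06g019170 (Pearson 0.74, Spearman 0.85). *ER5* ran against Solyc08g043170 (Pearson −0.76, Spearman −0.79), Solyc06g019170 (Pearson −0.77, Spearman −0.59), Solyc02g084840 (Pearson −0.55, Spearman −0.62) and *AREB1* (Pearson −0.56, Spearman −0.45). With *TAS14* its correlation was weak (Pearson −0.15, Spearman −0.17). The *Asr* genes went with each other (Pearson 0.71, Spearman 0.78), and Solyc04g071610 ran against Solyc08g043170 (Pearson −0.85, Spearman −0.85). These values are descriptions over the same 12 libraries and are not independent of each other.

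**Figure D3:**
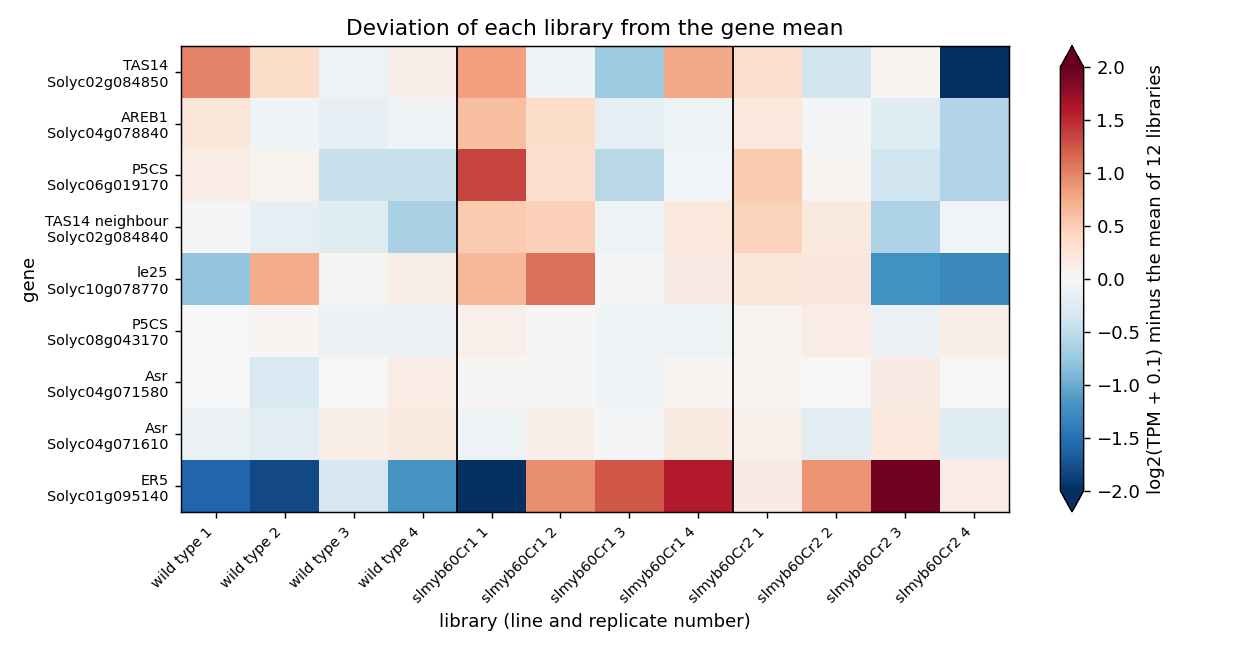
Heat map of log2(TPM + 0.1) minus the mean of the 12 libraries, with the 9 members as rows and the libraries as columns grouped by line; the color scale ends at 2 in either direction. In *TAS14*, *AREB1*, Solyc06g019170 and Solyc02g084840 the library numbered 1 is the highest of its line in all 3 lines, while *ER5* is low in 4 wild type libraries and in *slmyb60Cr1* replicate 1.

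Some members stood in the same order by replicate number in every genotype. *TAS14*, its neighbour, Solyc06g019170 and *AREB1*, 4 of the 9 members, were highest in the library numbered 1 in all 3 genotypes, an order that 11.1% of all tested genes showed. Their mean over the 3 libraries numbered 1 was 28.4, 100, 3.76 and 19.1 TPM, and over those numbered 3 it was 14.4, 63.8, 1.54 and 13.0 TPM. In Solyc02g084840 and Solyc06g019170 the libraries numbered 1 and 2 were above those numbered 3 and 4 in every genotype, as in 10.8% of all tested genes. The mean of *ER5* was 16.1 TPM over the libraries numbered 1 and 66.7 TPM over those numbered 3. In a limma fit with a term for the number, no member passed an adjusted p of 0.05 (0 of 9, beside 3.59% of all tested genes). The smallest limma adjusted p values of that term were 0.0696 for Solyc06g019170, 0.0711 for *AREB1* and 0.119 for Solyc02g084840. For *ER5* the limma adjusted p of that term was 0.227. The labels do not say what a number marks.

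The same libraries differed in their leaf marker level. The summed level of the 3 Rubisco small subunit genes ranged from 9031 to 18707 TPM among wild type libraries, from 3717 to 17393 TPM among those of *slmyb60Cr1* and from 6106 to 22348 TPM among those of *slmyb60Cr2*. As deviations from the genotype means, it ran against Solyc06g019170 (Pearson −0.93, Spearman −0.90), Solyc02g084840 (Pearson −0.90, Spearman −0.92), *AREB1* (Pearson −0.84, Spearman −0.80) and Solyc08g043170 (Pearson −0.71, Spearman −0.68) over the 12 libraries. It ran with *ER5* (Pearson 0.74, Spearman 0.59). It also ran against *TAS14* (Pearson −0.54, Spearman −0.61) and *le25* (Pearson −0.53, Spearman −0.58). These 2 were weaker than *ER5* by Pearson and similar to it in size by Spearman. The values for the *Asr* genes Solyc04g071610 (Pearson 0.35, Spearman 0.37) and Solyc04g071580 (Pearson 0.20, Spearman 0.22) were weaker by both. How many of all tested genes ran with or against the leaf marker sum as strongly was not counted, so these values are not shown to be particular to the members. The part of the leaf marker level in the differences between genotypes was not tested.

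**Figure D4:**
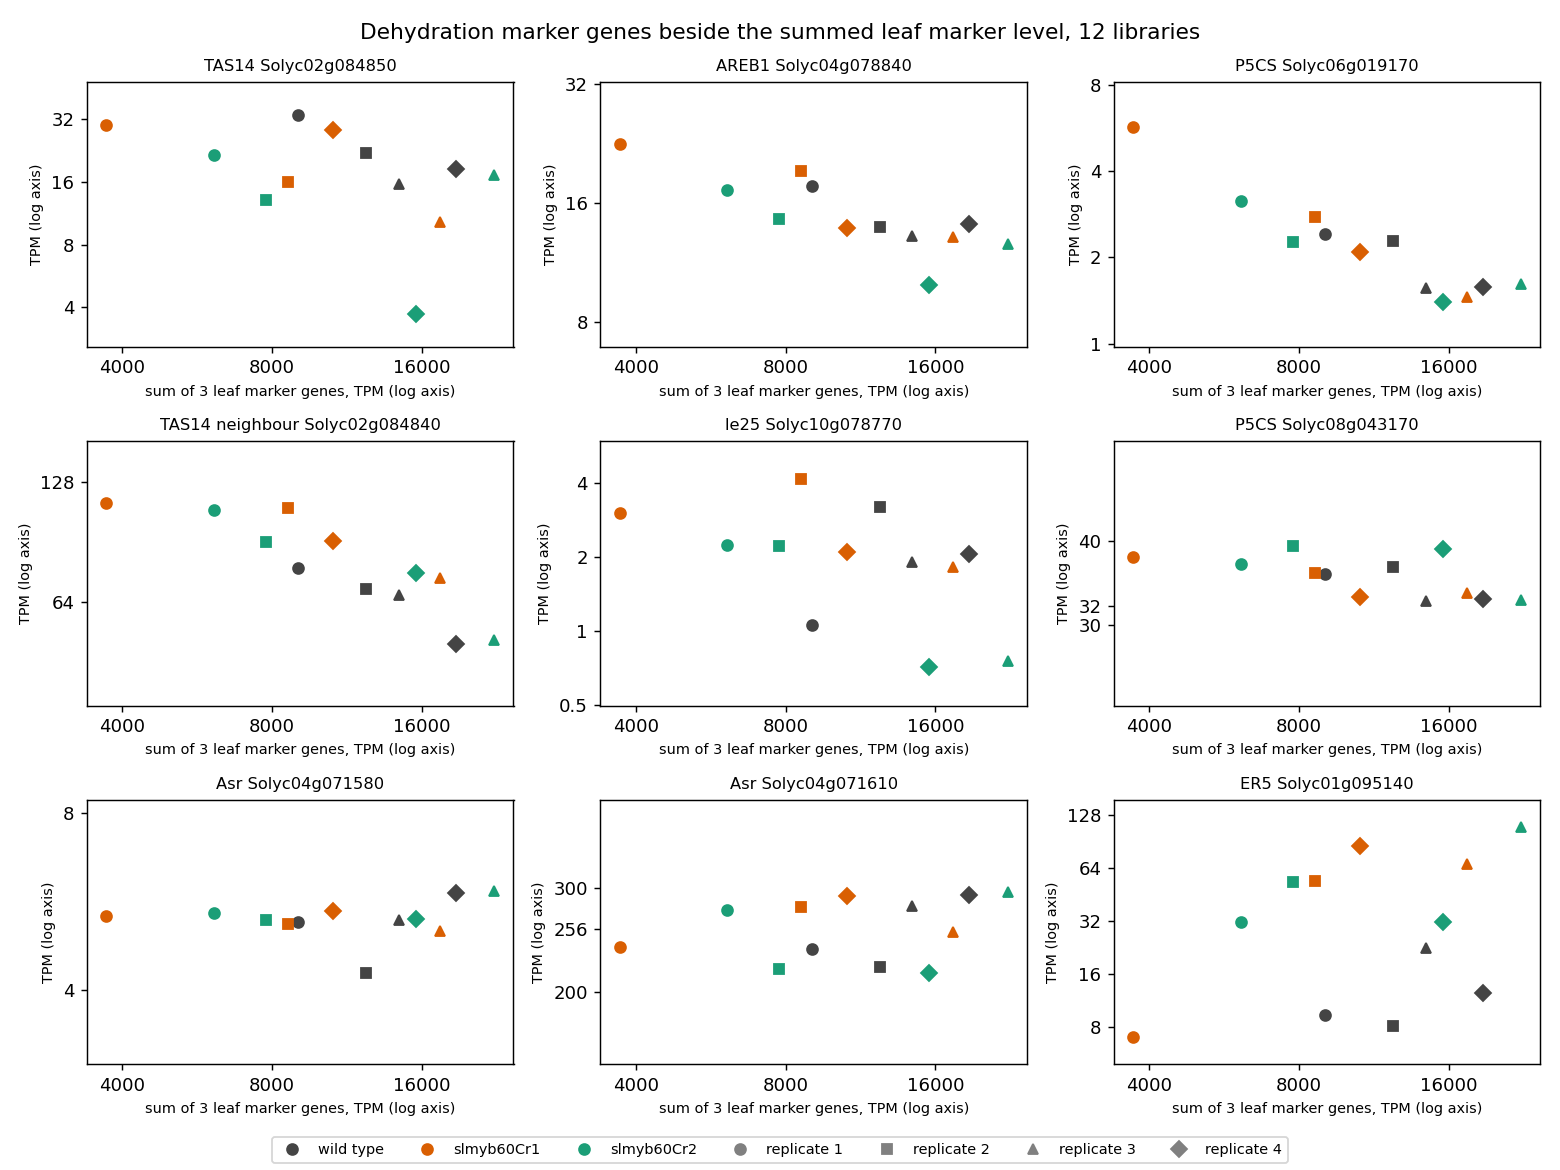
TPM of each member against the summed TPM of 3 leaf marker genes, both on log axes, with 1 point per library colored by line and shaped by replicate number. *AREB1*, Solyc06g019170 and Solyc02g084840 are lower in libraries with a higher leaf marker sum, and *slmyb60Cr1* replicate 1 lies at the left end with 3717 TPM of leaf markers and 7.02 TPM of *ER5*.

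Other genes tied to ABA and dehydration were read from a list of 21 identifiers set down from general knowledge as dehydrins, galactinol synthases, proline dehydrogenases, AREB/ABF factors, an RD29B-like gene, the ABA synthesis gene NCED1 and clade A PP2C phosphatases (negative regulators of ABA signaling). No table at hand paired them with names, so the assignments could not be checked. Of the 21, 20 had a row and 17 were tested. None was called in either line (0 of 17 in each, beside 0.669% and 1.40% of all tested genes). At an unadjusted limma p below 0.05 *slmyb60Cr1* had 5, of which 4 were higher and 1 lower, and *slmyb60Cr2* had 2, both higher, beside 17.1% and 23.1% of all tested genes in either direction. Of all tested genes, 8.26% were higher and 8.87% lower in *slmyb60Cr1* at that threshold, and 15.3% were higher in *slmyb60Cr2*. Their median log2 differences were 0.27 and 0.13, against −0.02 and 0.04 over all tested genes.

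In level, the 8 identifiers of the PP2C group lay between 6.10 and 266 TPM and that of NCED1 between 23.7 and 49.3 TPM. Of the 2 dehydrin identifiers with a row, 1 lay between 150 and 431 TPM and the other between 3.47 and 46.3 TPM. The RD29B-like identifier was at most at 0.0705 TPM in any library, and 2 of the 3 galactinol synthase identifiers were also below the TPM limit. At an adjusted p below 0.05 without the fold threshold, 1 of the 17 passed in each line, both named after their values were seen. Solyc10g081350, from the AREB/ABF group, was lower in *slmyb60Cr1* (9.19 to 9.80 TPM against 11.0 to 12.2 in the wild type, log2 difference −0.30, limma adjusted p = 0.0406). Solyc02g089620, from the proline dehydrogenase group, was higher in *slmyb60Cr2* (76.4 to 113 TPM against 50.4 to 61.4, log2 difference 0.70, limma adjusted p = 0.0330). At that same threshold all tested genes passed in 1.69% and 7.41%.

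The identifiers next to *TAS14* and the *Asr* genes were read in the same way. Those next to the other members were not read. The paper lists the identifier that follows *ER5*, described there as a late embryogenesis type protein, among the genes higher in both edited lines. The chromosome match given above for the symbol ER5 holds for that identifier as well. Of 11 such identifiers around *TAS14* and the *Asr* genes, 9 were tested and none was called in either line (0 of 9 in each, beside 0.669% and 1.40% of all tested genes). At an unadjusted limma p below 0.05 there were 0 in *slmyb60Cr1* and 1 in *slmyb60Cr2*, beside 17.1% and 23.1%. The latter was Solyc02g084830, named after its value was seen, at 2.75 to 3.15 TPM in *slmyb60Cr2* against 1.84 to 2.27 in the wild type (log2 difference 0.51, limma adjusted p = 0.0272). The genes whose deviations were most like those of *TAS14*, among 15651 genes with a mean of at least 5 TPM, were Solyc08g062180 (Pearson 0.92 over 12 libraries) and Solyc04g081230 (Pearson 0.92), for which no names were at hand. Over the 12 libraries they lay between 4.63 and 10.5 TPM and between 13.0 and 16.4 TPM, while *TAS14* lay between 3.70 and 33.7 TPM. They were picked as the highest of 15651 correlations, which raises such values, and a correlation does not compare the size of changes. By the same measure *AREB1* stood at place 255 and the *TAS14* neighbour at place 5422.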

How the data were processed

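Groups and replicate numbers of the 12 leaf RNA libraries come from the labels. After trimming with fastp, the authors quantified ITAG 4.0 transcripts in Salmon, corrected for GC and sequence bias, and deposited TPM, 1 value per gene and library without pooling. Tool versions are not given in the sources used here. The authors tested Salmon estimates with DESeq2, which TPM does not allow, so limma 3.58.1 (R 4.3.3) with an intensity trend was fitted to log2(TPM + 0.1) over the 21218 genes that reached 0.5 TPM in 4 or more libraries, with genotype as the only factor and Benjamini-Hochberg adjustment over all of them; 12758 genes were not tested. Thresholds are the paper's, but the test is not. This fit called 142 genes in *slmyb60Cr1* and 298 in *slmyb60Cr2*, fewer than the paper reports for either line. A call or its absence here is therefore not a result of the paper's own test. None of the 9 members, *ER5* included, is on the paper's list of genes changed in both lines. That list does not show genes changed in 1 line alone. Exact permutation tests used scipy 1.17.1 and figures matplotlib 3.10.9. The fit was tested on simulated data. The members, lists and tests were chosen with earlier results of these data known. Named genes are all members and the genes most like *TAS14*, of which at most 2 without a name are printed. Pathway list genes and neighbouring identifiers are named where they passed an adjusted p below 0.05 at any fold in either line. Alternatives covered the pseudocount, TPM limit, scaling, variance model, libraries in the fit, replicate block and each library left out.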

Additional observations from a re-analysis of the deposited data

How the results depend on the processing

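Of the 27 log2 differences of the members, each recomputed under 21 alternatives, 10 changed sign under at least 1 of them, and 0 of these 10 had an adjusted p below 0.05 in the reported fit. The count of called members, 0 in each comparison, became 1 (*ER5*) in *slmyb60Cr2* when the fit held the compared groups alone and 1 with the replicate block (limma adjusted p = 0.0489). Leaving out each library gave 0 to 1 in *slmyb60Cr1* and 0 to 1 in *slmyb60Cr2*, the 1 in both without *slmyb60Cr1* replicate 1, and 0 to 1 for a term for the replicate number (Solyc02g084840, without wild type replicate 3). The adjusted limma p of *ER5* ranged from 0.0199 to 0.518 and from 0.0176 to 0.249. The numbers were not taken to pair the libraries: 8 of 12 same-numbered pairs correlated above 0.1 in their deviations (mean 0.193, against −0.0641 for different numbers), and in 11 of 24 comparisons of a library with another genotype its own number correlated best. Quantile normalization gave −0.012 for Solyc04g071580 in *slmyb60Cr1*, −0.048 in *slmyb60Cr2* and −0.036 between the lines, where median-of-ratios rescaling gave −0.0062, and −0.12 for Solyc06g019170 in *slmyb60Cr2*. Leaving out each library gave, in *slmyb60Cr1*, −0.36 to 0.15 for *TAS14*, −0.011 to 0.055 for Solyc08g043170, −0.022 to 0.11 for Solyc04g071610 and −0.051 to 0.098 for Solyc04g071580, in *slmyb60Cr2*, −0.15 to 0.23 for Solyc06g019170, −0.12 to 0.031 for Solyc04g071610 and −0.26 to 0.0033 for *AREB1*, and between the lines −0.46 to 0.73 for *ER5*. The cause of these changes was not tested. The share of all tested genes called moved more: from 0.669% in *slmyb60Cr1* to 0.443% with the compared groups alone and to between 0.364% and 1.38% (the latter without *slmyb60Cr1* replicate 1) with 1 library left out, from 1.40% in *slmyb60Cr2* to 0.928% with a pseudocount of 1 and to as little as 0.880% without *slmyb60Cr2* replicate 4, and from 0.151% between the lines to 0.0424% with the compared groups alone and 0.245% with the replicate block. For the replicate number it moved from 3.59% to 1.86% without the TPM limit, 0.947% without the intensity trend and between 0 and 6.20% with 1 library left out. The paper gives read totals for each library, but TPM holds no read counts for single genes. The precision of the low genes *le25* and Solyc06g019170 therefore rests on the spread between libraries within genotypes, estimated over all 12 in one limma fit.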
